A study of Mus musculus with 4 samples.

Results

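Id4, Tgfbr2 and Hmga2 are 3 protein-coding genes described as targets of the microRNA miR-9. They were chosen by name, with earlier results of these data known. All 3 were among the 1142 genes in the deposited tables of mammary tumours with and without a miR-9 knockout. The group means of every gene in those tables were 2.0-fold or more apart, and of 60 other reported targets 1 was listed. Of 21013 coding genes with an annotated 3' untranslated region, 1039 were listed. Id4 and Tgfbr2 were higher in the knockout tumours and Hmga2 was lower. The tumours came from female MMTV-PyMT mice of mixed C57BL/6 background, which carry the polyoma virus middle T antigen under a mouse mammary tumour virus promoter. The 2 control samples had no miR-9 knockout, and the 2 knockout samples carried a deletion that the labels place in exon 1 of miR-9. The labels give heterozygous mice as the source of the allele, and they do not state the zygosity of the tumour-bearing animals, their age, the miR-9 locus that was targeted, or how many animals or tumours each sample came from. The p-values therefore measure only the spread between these samples. RNA-seq gave a normalised read count per gene, which is the number of reads divided by 1 size factor per sample.

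A microRNA pairs through its seed with short matches, mostly in the 3' untranslated regions (3' UTRs) of messenger RNAs, and lowers their stability or translation. miR-9 is abundant in the developing brain and has been studied in breast cancer as a regulator of E-cadherin. Id4 is a helix-loop-helix protein without a DNA-binding region that sequesters E proteins, and in the mammary gland it is a gene of basal cells. Tgfbr2 is the type II receptor that binds transforming growth factor beta (TGF-beta) and activates the type I receptor. Hmga2 is an AT-hook chromatin protein of embryonic tissue that is restrained by the let-7 microRNAs and can return in tumours.

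The mature sequences are shown to make the sites in the 3 genes readable. They come from RefSeq (GRCm38.p6), run 5′ to 3′, and have the seed, bases 2 to 8, in capitals. Both arms of the hairpin are identical at the 3 mouse loci, Mir9-1 on chromosome 3, Mir9-2 on chromosome 13 and Mir9-3 on chromosome 7.
miR-9-5p: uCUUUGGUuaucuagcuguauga
miR-9-3p: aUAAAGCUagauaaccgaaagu

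Matches to these seeds were searched on the sense strand of the 3' UTRs annotated in GENCODE M21 (GRCm38). A 7mer-m8 match is ACCAAAG for miR-9-5p and AGCTTTA for miR-9-3p, a 7mer-A1 match is CCAAAGA or GCTTTAA, and an 8mer holds both overlapping matches and was counted once. Id4 had the densest set, with 3 matches for miR-9-5p and 2 for miR-9-3p in a 3' UTR of 3093 bases. The windows below are 30 bases of the sense strand with the match in capitals, and the coordinates are those of the match.
Id4, miR-9-5p, 7mer-m8, chr13:48264204-48264210, plus strand: gaaaaatgttctctgcttgctACCAAAGga
Id4, miR-9-5p, 7mer-A1, chr13:48264251-48264257, plus strand: acattttctgccctcttccctCCAAAGAat
Id4, miR-9-5p, 8mer, chr13:48265728-48265735, plus strand: agtttcattgtataggcaaaACCAAAGAat
Id4, miR-9-3p, 7mer-m8, chr13:48263373-48263379, plus strand: gggaactgtttttgtttttgaAGCTTTAct
Id4, miR-9-3p, 7mer-A1, chr13:48263556-48263562, plus strand: taagtgtgagaaagtatatgcGCTTTAAta

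Tgfbr2 had 3 matches for miR-9-5p, none of them an 8mer, and an 8mer for miR-9-3p in its longest 3' UTR, of 6085 bases (transcript Tgfbr2-202). The shorter annotated 3' UTR, of 1449 bases (Tgfbr2-201), kept only the match nearest the stop codon. A gene-level count does not tell these transcripts apart.
Tgfbr2, miR-9-5p, 7mer-A1, chr9:116090325-116090331, minus strand: cctccagaagccgtcctctagCCAAAGAcc
Tgfbr2, miR-9-5p, 7mer-m8, chr9:116088325-116088331, minus strand: caacaaatgtggatgttgcaaACCAAAGtc
Tgfbr2, miR-9-5p, 7mer-m8, chr9:116085963-116085969, minus strand: caggacctaaaattttgtgcaACCAAAGtg
Tgfbr2, miR-9-3p, 8mer, chr9:116088373-116088380, minus strand: ttggatgagagcagggaatgAGCTTTAAaa

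Hmga2 had a single match, an 8mer for miR-9-5p, in both of its annotated 3' UTRs, of 3014 and 2977 bases. The gene that was lower in the knockout thus held 1 of the 2 miR-9-5p 8mers found among the 3 genes.
Hmga2, miR-9-5p, 8mer, chr10:120363747-120363754, minus strand: atagaaaatctgcttaggacACCAAAGAtg

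**Figure D1:**
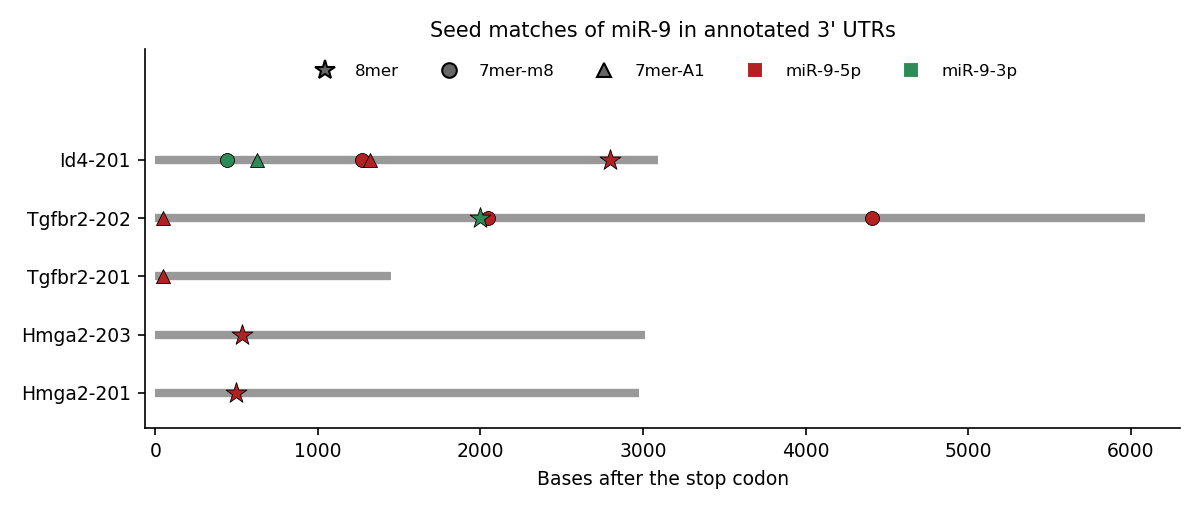
Seed matches along the annotated 3' UTRs, drawn to scale in bases after the stop codon. Red marks miR-9-5p and green miR-9-3p. Shapes give the kind of match. Id4 holds 5 matches in 3093 bases, and Hmga2 holds 1.

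Such matches are common. Of 21013 coding genes with an annotated 3' UTR, 20.3% held a miR-9-5p match in the longest one and 4.13% held an 8mer, while 17.4% held a miR-9-3p match. Long 3' UTRs hold more, so each gene was read against those within 20% of its own length. Among 2204 such 3' UTRs for Id4, 42.1% held a miR-9-5p match and 1.91% held 3 or more. Among 625 for Tgfbr2, 62.1% held a match and 8.8% held 3 or more. Among 2246 for Hmga2, 40.7% held a match and 8.64% an 8mer. A match is a description of the sequence and not a measured site.

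Only 1 listed gene lies over any of the 3 miR-9 hairpins, that of Mir9-1. Mature miR-9 was not measured, but the long noncoding RNA gene Gm3764 (ENSMUSG00000097156, chromosome 3, 88206813 to 88229959, plus strand, GRCm38) was in the table and spans the Mir9-1 hairpin (88215598 to 88215686). It had 51.1 and 54.2 normalised reads in controls 1 and 2, and 0.904 and 3.83 in knockouts 1 and 2. Both knockouts were far below both controls, 5 reads against 99, a ratio of 22.6 (95% Clopper-Pearson counting interval 9.37 to 71.1; log2 change -4.14 ± 0.73 SE, limma adjusted p = 0.00326). None of its 11 annotated transcripts has an exon over the hairpin, so these reads are of the host transcript and not of the hairpin. Gm3764 was looked up by position, outside the rule for named genes. The labels do not name the targeted locus and the table was selected on these samples, so its fall is no check of the deletion.

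**Figure D2:**
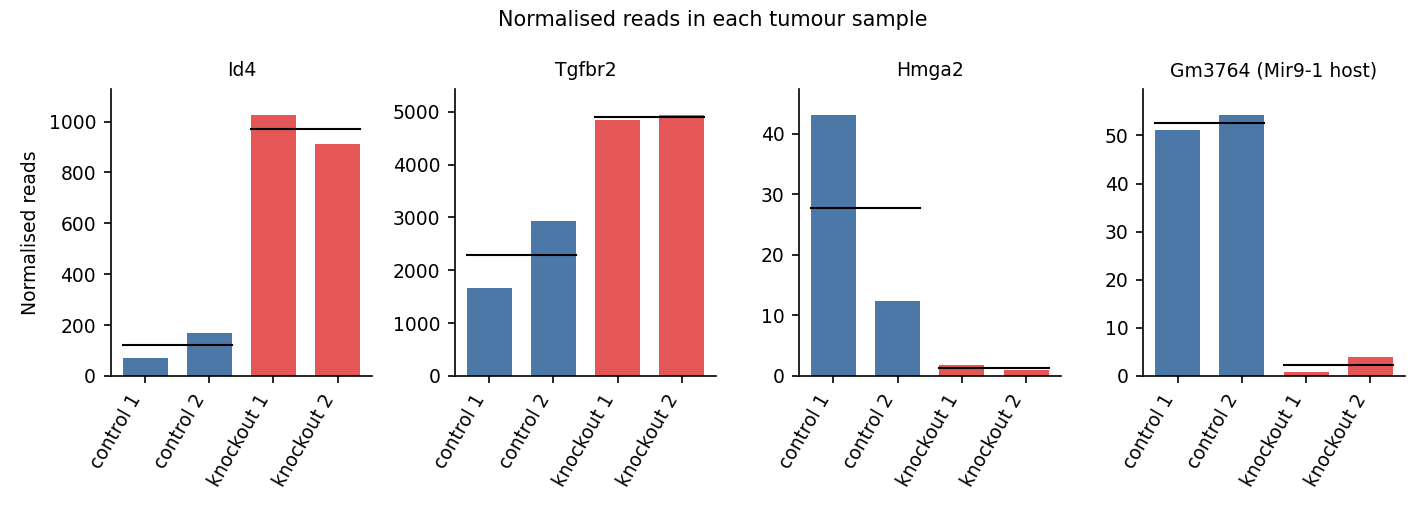
Normalised reads of Id4, Tgfbr2, Hmga2 and Gm3764 in each of the 4 tumour samples, with bars from 0 and a black line at the mean of each group (n = 2). In each panel the groups do not overlap, with the knockouts above the controls for Id4 and Tgfbr2 and below them for Hmga2 and Gm3764.

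The group means of every listed gene were 2.0-fold or more apart. The table was thus selected on these same samples, and a call within it adds little. Counts of listed genes stand beside 1039 listed of 21013 coding genes with an annotated 3' UTR. Of the 1142 genes 99.8% passed limma's test at an adjusted p under 0.05, 61.3% higher and 38.5% lower in the knockout, and in 99.9% the groups did not overlap. All 3 genes passed, 2 higher and 1 lower, which is no more than that background. Relative depth ranged from 0.885 to 1.11 over the samples. With 2 samples a group an exact two-sided permutation test cannot go below p = 0.333, the value it gave for each of the 3 genes. In bulk tumours, fewer cells of a type and less RNA per cell cannot be told apart.

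Id4 (ENSMUSG00000021379, chromosome 13, 48261228 to 48266026, plus strand) had 71.2 and 169 normalised reads in controls 1 and 2, and 1026 and 914 in knockouts 1 and 2. The groups did not overlap, and the lower knockout was 5.39-fold above the higher control, more than the 2.38-fold between the controls. The mean rose 8.06-fold, from 120 ± 69.5 to 969.6 ± 79.1 (SD, n = 2 per group). On the log2(value + 1) scale the change was 3.13 ± 0.44 (SE, limma adjusted p = 0.00182). It was 2.51 without control 1 (adjusted p = 0.0203) and 3.75 without control 2 (0.00864), and it did not pass without knockout 1 (3.04, adjusted p = 0.106) or without knockout 2 (3.21, 0.116). The increase was the 96th largest of the 700 increases by log2 change. The first part of Id4 overlaps 2 noncoding genes on the opposite strand, A330033J07Rik over 1396 bases and Gm49291 over 1364, and with no strand setting given, reads of that overlap cannot be told apart.

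Basal and myoepithelial markers moved with Id4. Of 10 such genes 7 were in the table, 6 higher and 1 lower, in a table with 61.3% of genes called higher and 38.5% lower. Their summed level was 6686 and 9170.2 in the controls, against 29109 and 28041 in the knockouts, and none was at 0. By mean over all 4 samples the most abundant were Acta2, smooth muscle actin, which rose from 2206 ± 1183 to 11826 ± 103, and Myh11, smooth muscle myosin, which rose from 569.6 ± 434 to 4830.1 ± 121. In the controls alone the most abundant was Krt14, a basal keratin and the 1 marker of the list that was lower, named after its values were seen, which fell from 3259 ± 1037 to 1369.8 ± 36.9. Luminal markers were also higher, 3 of 9 being in the table with sums of 3646 and 6373 against 15150 and 17232, mostly Krt19 and Foxa1. So were 3 of 6 Schwann cell markers, mostly Cdh19, with sums of 132 and 278 against 1200.0 and 1059. Of 5 adipocyte markers Plin1 and Lep were listed and higher, with sums of 12.0 and 33.9 against 129 and 468. Of 7 T and NK cell markers 3 were listed and higher, mostly Gzmb and Gzma, with sums of 50.1 and 71.2 against 216 and 224. With DESeq2's own size factors the genes still called higher were 5 of 6 basal, 2 of 3 luminal, 1 of 3 Schwann cell, 2 of 2 adipocyte and 0 of 3 T and NK cell markers, the last against 1 under TMM. Of all 1142 genes 122 were called higher with DESeq2's own size factors and 248 under TMM, against 700 with the deposited scaling. The part of these cell types in the rise of Id4 was not tested.

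Of 18 genes on a list of Id proteins, E proteins and other helix-loop-helix factors 2 were in the table. That count stands beside 1039 listed of 21013 coding genes with an annotated 3' UTR. Of the 3 other Id proteins only Id3, which also sequesters E proteins, was listed. It had 141 and 206 normalised reads in the controls, against 601 and 583 in the knockouts, a 3.41-fold rise (limma adjusted p = 0.00417), less than that of Id4. Under DESeq2's own size factors, computed on the listed genes, the log2 change of Id3 was 0.70 and did not pass (adjusted p = 0.177). None of the 3 E proteins was listed, and their levels are not analysed here. Of 12 further helix-loop-helix factors chosen for that list 1 was in the table, Hey2, a Notch-induced repressor. The deposited tables place 9 listed genes in the family bHLH, Id4, Id3 and Hey2 among them. Hey2 was at 23.0 and 71.2 in the controls, against 149 and 131 in the knockouts (limma adjusted p = 0.0158). With TMM scaling on the listed genes Hey2 did not pass (adjusted p = 0.163).

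Tgfbr2 (ENSMUSG00000032440, chromosome 9, 116084293 to 116175360, minus strand) had 1662 and 2931 normalised reads in controls 1 and 2, and 4847 and 4935 in knockouts 1 and 2. The groups did not overlap, but the lower knockout was only 1.65-fold above the higher control, less than the 1.76-fold between the controls. The mean rose 2.13-fold, from 2296 ± 897 to 4891 ± 62.6, close to the smallest difference in the table, and 86.0% of listed genes had a larger log2 change in either direction. That change was 1.15 ± 0.36 (SE, limma adjusted p = 0.0156). It was 0.74 without control 1 (adjusted p = 0.0279) and 1.56 without control 2 (0.00864), and it did not pass without knockout 1 (1.16, 0.153) or without knockout 2 (1.13, 0.170). The rise also depended on the deposited size factors: with scaling computed on the listed genes it was 0.38 with edgeR and TMM (adjusted p = 0.268) and 0.04 with DESeq2 (0.955). Under those scalings the whole table had a median log2 change of 0.48 and 0.13, against 1.23 with the deposited size factors. As they lower log2 changes throughout, a rise this near the smallest in the table was bound to move toward 0.

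Stromal markers moved with Tgfbr2, which fibroblasts and macrophages also make. Of 10 fibroblast genes 4 were listed, with a summed level of 10519.5 and 12847 in the controls, against 21076 and 27179 in the knockouts. By mean over all 4 samples Sparc, a matrix protein, was the most abundant and was higher, and Fn1, fibronectin, came next and was lower. Of 8 macrophage genes 6 were listed, all higher, with sums of 9683 and 16681 against 35961 and 43072, mostly Apoe and C1qa. These counts stand beside the 61.3% of all listed genes called higher, and like Tgfbr2 they depend on the scaling. Under TMM on the listed genes 1 of the 6 macrophage markers and 1 of the 3 higher fibroblast markers were called higher. With DESeq2's own size factors none of either list was, and the log2 change of 2 macrophage markers, C1qa among them, was below 0. Of all 1142 genes TMM called 248 higher and DESeq2's own size factors 122. No listed marker of either kind was at 0, and none of the 7 endothelial genes was in the table. Their part in the rise of Tgfbr2 was not tested.

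Genes of the pathway around Tgfbr2 were listed on both sides. Of 78 other genes of TGF-beta and bone morphogenetic protein (BMP) signalling 14 were listed, 7 higher and 7 lower, in a table with 61.3% higher and 38.5% lower. That count stands beside 1039 listed of 21013 coding genes with an annotated 3' UTR. The median log2 change of the 14 genes was 0.12, against 1.23 over the table. With as many genes on each side, that median falls in the empty band around 0 and is not the change of any gene. Among 18 ligands, 3 of the 4 listed were lower. Inhbb, the beta-B subunit of activin and inhibin, rose 2.77-fold, from 1504 and 2598 to 5631 and 5738, a call lost under TMM scaling on the listed genes (adjusted p = 0.0663). Each pathway gene that lost its call under TMM lost it with DESeq2's own size factors too. Inha, the inhibin alpha subunit, fell 3.93-fold, from 126 and 68.9 to 18.1 and 31.6, a call lost without control 1 (adjusted p = 0.0668). Bmp6, a BMP ligand, had 75.2 and 67.8 in the controls, against 17.2 and 23.0 in the knockouts, and Gdf11, a ligand of activin receptors, had 183 and 104 against 53.3 and 44.1. Both falls passed limma's test (adjusted p = 0.0106 and 0.0137).

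Of 13 further receptors only Amhr2, the type II receptor of anti-Müllerian hormone, was listed. It had 92.2 and 93.8 normalised reads in the controls, against 201 and 267 in the knockouts, a rise that did not pass under TMM (adjusted p = 0.141). The type I partner Tgfbr1 and the 6 Smad transducers were not listed, and their levels are not analysed here. Of 18 inhibitors 2 were listed. Bambi, a decoy receptor without a kinase, fell 2.12-fold, from 339 and 491 to 195 and 196. Fst, follistatin, which binds activin, rose 2.86-fold, from 115 and 206 to 466 and 451, a call lost under TMM (adjusted p = 0.0655).

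Of 10 matrix genes that store or bind the ligands, Ltbp2 and Dcn were listed and both were higher. Dcn, decorin, rose 3.70-fold, from 907 ± 471 to 3361 ± 1067, a call lost with DESeq2's own size factors (adjusted p = 0.0785). Ltbp2, a latent TGF-beta binding protein, rose 2.21-fold, a call lost under TMM (adjusted p = 0.279). Of 13 genes known to be induced by TGF-beta 5 were listed, 3 lower and 2 higher. Ctgf, connective tissue growth factor, fell 2.25-fold, from 3419 and 2263 to 1374 and 1151, and Fn1 fell 2.01-fold. Acta2 rose 5.36-fold, and Snai2, a transcription factor of epithelial-mesenchymal transition and basal cells, rose 2.88-fold, from 34.1 and 61.0 to 164 and 109, a call lost without control 1 (adjusted p = 0.0676) and under TMM (0.133). Acta2, Fn1 and Dcn are also in the marker lists above.

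**Figure D3:**
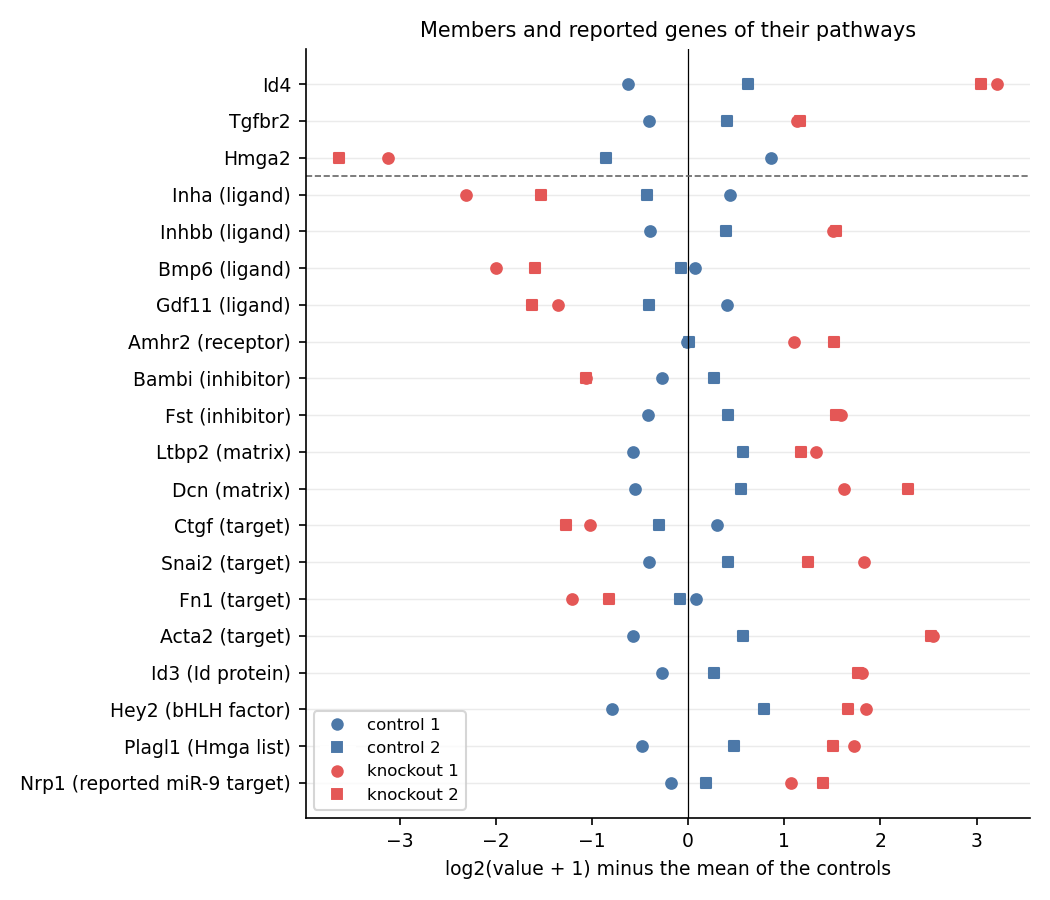
Each point is a sample, as log2(value + 1) minus the mean of the 2 controls, for the 3 genes (above the dashed line) and each gene of their pathway lists that is named in the text. Blue marks controls and red knockouts. The knockouts of the pathway genes fall on both sides of 0.

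Hmga2 (ENSMUSG00000056758, chromosome 10, 120361275 to 120476469, minus strand) had 43.1 and 12.4 normalised reads in controls 1 and 2, and 1.81 and 0.959 in knockouts 1 and 2. The groups did not overlap, and the lower control was 6.88-fold above the higher knockout, more than the 3.47-fold between the controls. The controls held 54 reads and the knockouts 3, a ratio of 20.5 (95% Clopper-Pearson counting interval 6.67 to 103). The log2 change was -3.38 ± 0.89 (SE, limma adjusted p = 0.00962), and it was the 61st largest of 442 decreases. On this scale it understates the ratio, because the knockout values are near the pseudocount of 1, and it was -4.03 with a pseudocount of 0.1 and -2.18 with 5. It was -2.52 without control 1 (adjusted p = 0.0211) and -4.23 without control 2 (0.00864), and it did not pass without knockout 1 (-3.63, 0.111) or without knockout 2 (-3.12, 0.135). Hmga2 overlaps the antisense genes 1700006J14Rik and 9230105E05Rik, whose reads cannot be told apart from it where exons coincide, and it hosts Mir763.

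Skeletal muscle markers fell in the same samples. Of 7 such genes 6 were listed, all lower, with sums of 568 and 876 in the controls, against 61.4 and 34.5 in the knockouts, and Myh1 was at 0 in knockout 1. By mean over all 4 samples Acta1 and Mylpf were the most abundant. These counts stand beside the 38.5% of all listed genes called lower. All 6 were still called lower with both scalings on the listed genes. Each of those scalings called all 442 decreases of the table lower, so this does not set the muscle markers apart. The part of muscle tissue in the fall of Hmga2 was not tested. Of Hmga1, Hmga1b and 10 let-7 and oncofetal genes, only Plagl1, an imprinted zinc-finger factor, was listed. It was higher, at 98.2 and 191 against 456 and 392, a call lost under TMM (adjusted p = 0.0729).

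**Figure D4:**
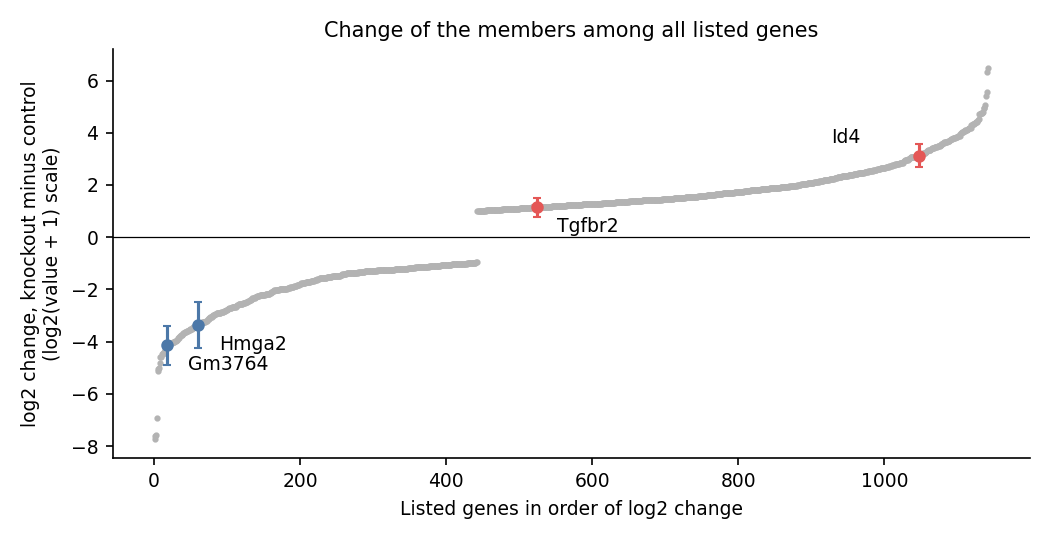
All 1142 listed genes in order of log2 change (knockout minus control, log2(value + 1) scale), with Id4, Tgfbr2, Hmga2 and Gm3764 marked and bars of 1 SE. The empty band around 0 shows the selection of the table. Id4 (3.13) and Hmga2 (-3.38) lie toward the ends and Tgfbr2 (1.15) beside the band.

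Per length of the gene model the 3 genes kept one order in every sample. In normalised reads per kilobase, Tgfbr2 was at 280 ± 110 in the controls, Id4 at 31.3 ± 18.1 and Hmga2 at 4.10 ± 3.20. In the knockouts these levels were 597 ± 7.65, 252 ± 20.6 and 0.204 ± 0.0886. No neighbours in that order overlapped in either group.

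The genes most like each member were found by distance between log2(value + 1) profiles over the 4 samples, each centred on its own mean. The profiles closest to Id4 were those of Col23a1, a membrane collagen (distance 0.19), Sec14l4, a lipid-binding protein (0.20), and Irx4, a homeobox factor (0.20), against a median of 2.08 over the listed genes. Irx4 had 34.1 and 71.2 normalised reads in the controls, against 486 and 469 in the knockouts. Closest to Tgfbr2 were Stat5a, the transcription factor downstream of prolactin (0.08), Lmo7, a LIM-domain protein (0.09), and Slc31a2, a copper transporter (0.10), against a median of 1.65. Stat5a had 501 and 862 in the controls, against 1358 and 1435 in the knockouts, and like Lmo7 and Slc31a2 it turned to a log2 change just below 0 under DESeq2's own size factors. Closest to Hmga2 were Rasd2, a small GTPase (0.24), Trim10, a tripartite-motif protein (0.49), and Gal3st1, a sulfotransferase (0.50), against a median of 4.87. Rasd2 had 107 and 39.5 in the controls, against 7.23 and 4.79 in the knockouts. Of these 9 genes, Sec14l4, Slc31a2, Rasd2 and Trim10 held a miR-9-5p seed match.

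Across the table, 1039 listed genes had an annotated 3' UTR, of which 270 held a miR-9-5p match. Among genes with no match 61.2% were higher in the knockout, among 204 with 1 match 62.7%, and among 66 with 2 or more 74.2%. The median log2 change was 1.23, 1.24 and 1.21 in turn. The median 3' UTR length rose with the number of matches, from 859 to 1952 and 3765 bases. Id4 and Tgfbr2 were among 21 genes with 3 or more, of which 16 were higher. Of the 55 genes with an 8mer, Hmga2 included, 61.8% were higher, beside 62.4% of all 1039. For miR-9-3p 70.3% of 202 genes with a match were higher, against 60.5% of 837 without. These shares are descriptions of a selected table, and 3' UTR length moved with them.

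Of 60 other genes named in the literature as miR-9 targets only Nrp1, a co-receptor for semaphorins and vascular growth factor, was in the table. It had 105 and 136 normalised reads in the controls, against 252 and 318 in the knockouts, a 2.37-fold rise (limma adjusted p = 0.0128). With TMM scaling it did not pass (adjusted p = 0.150). E-cadherin (Cdh1) and the rest were not listed, and their levels are not analysed here.

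**Figure D5:**
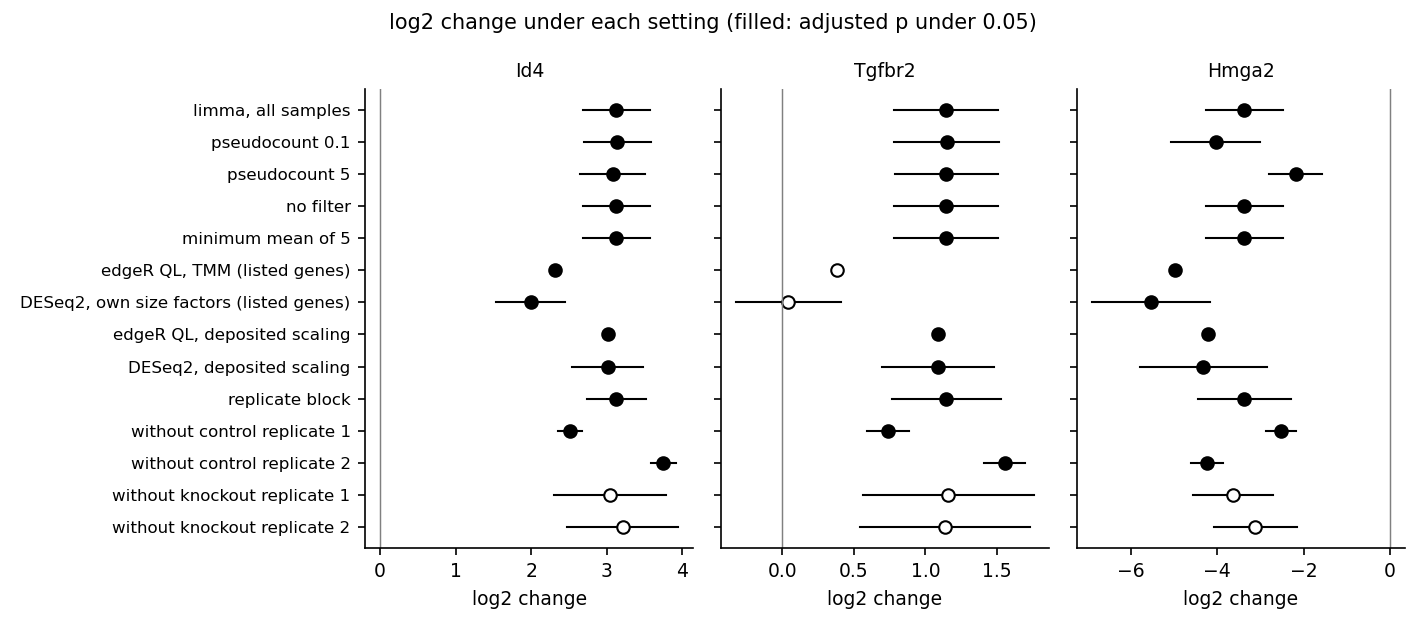
The log2 change of Id4, Tgfbr2 and Hmga2 under each setting, with bars of 1 SE where the tool gives one and filled points where the adjusted p is under 0.05. Id4 is nowhere under 1.99 and Hmga2 nowhere above -2.18, while Tgfbr2 falls to 0.38 and 0.04 with scaling on the listed genes, and none of the 3 passes when either knockout is left out.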

How the data were processed

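RNA-seq tables of 4 tumour samples, grouped by the genotype in the labels, were used. The deposited signal is a normalised read count: each sample's values are whole reads times a constant, which held for 100% of values within 1e-06. In control 1 that step, 1.00215, is so near 1 that its recovered reads are less sure. The deposited gene length column (other unit) gave levels per kilobase. Bowtie 0.12.2 and the builds hg38, GRCm38 and mm10 stand in the submitters' processing notes. No source used here gives the counter, the strand setting or the criteria for listing a gene. Counting intervals cover counting error only.

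limma 3.58.1 (R 4.3.3) with a trend was run on log2(value + 1) over all 1142 genes (minimum mean 0.5, none removed), with genotype alone in the design and Benjamini-Hochberg adjusted p under 0.05 as the call. Alternatives used edgeR 4.0.16 and DESeq2 1.42.0 on recovered reads. The limma fit and the seed search were tested on simulated data. Most genes simulated for limma did not change, unlike those of this table. That test therefore does not show how the fit behaves on a table selected for change. Reads of the controls differed with a chi-square of 55.8 per degree of freedom and those of the knockouts with 15.1, so no pair was a duplicate.

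Members, lists and tests were chosen with earlier results of these data known. Named genes were the members, the 3 nearest profiles to each (predicted genes left out), all listed genes of the pathway lists, and the 2 markers of each list with the highest mean over the 4 samples. The counts cover 1 listed pathway gene and 1 marker that are not reported here. Of 1142 identifiers 1141 were in GENCODE M21, 1096 with identical coordinates, the 3 members among them.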

Additional observations from a re-analysis of the deposited data

How the results depend on the processing

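Id4, Tgfbr2 and Hmga2 kept their direction under every setting in the plot of log2 changes. Leaving out each sample in turn gave log2 changes of 2.51 to 3.75 for Id4, 0.74 to 1.56 for Tgfbr2 and -4.23 to -2.52 for Hmga2, with 13 to 1070 genes called in the table and 0 to 18 of the 18 listed pathway genes. With either knockout left out 13 genes passed, all higher, none of the 53 other named genes passed, and 453 and 392 genes had an unadjusted p under 0.05 without knockout 1 and knockout 2. The lone remaining sample is then assumed to vary like the other group. Scaling on the listed genes left 690 genes called with edgeR and TMM and 564 with DESeq2, against 1140, of which 35.9% and 21.6% were higher, against 61.4%. Of the 18 listed pathway genes 10 and 8 were then called. These scalings assume that most genes do not change, which a table selected for change does not meet. Calls lost among small rises, and calls kept among falls, therefore say little about the single genes. Tgfbr2 was at 0.38 and 0.041 and not called, and under DESeq2 the log2 change reversed for Stat5a (-0.019), Lmo7 (-0.038), Slc31a2 (-0.0038), C1qa (-0.046) and Bglap3 (-0.034), while 22 of the 53 lost their call, against 19 under TMM. For the marker genes, the genes near the loci and the bHLH family these alternatives were chosen after seeing the data. Without control 1, 5 of the 53 lost their call (Inha, Snai2, Gzma, Plin1 and Wnk2), and without control 2 only Plin1 did. Counting only 8mers left 55 genes with a miR-9-5p match instead of 270, since the criterion is narrower. The pseudocounts, filters, and edgeR and DESeq2 with the deposited scaling changed no call of the 3 genes or of the 53. Samples share replicate numbers, which nothing in the labels says pair them. Deviations of control 1 and knockout 1 from their group means correlated at r = 0.043 over the 1142 genes. With a term for the number (the replicate block) all 1142 genes passed, with Id4 at 3.13, Tgfbr2 at 1.15 and Hmga2 at -3.38. With 3 reads in the knockouts, depth limits the size of the change of Hmga2.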

Other observations

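Some listed genes lay near the loci described above. They were found by position and are named after their values were seen, with no test. Within 1 Mb of the 3 miR-9 hairpins, apart from Gm3764, the table held 6 genes, and all 6 had both knockouts above both controls, in a table where 61.3% of genes were called higher. With DESeq2's own size factors, computed on the listed genes, the log2 change of Bglap3 was -0.034, and those of Paqr6, Mef2c and Ntrk3 stayed above 0 and were not called. Bcan, the brain proteoglycan brevican, 215 kb from the Mir9-1 hairpin, had 34.1 and 12.4 normalised reads in the controls, against 202 and 240 in the knockouts. Paqr6, a membrane progestin receptor, 149 kb from that hairpin, had 223 and 258 against 758 and 739. Bglap3, of the osteocalcin gene cluster, 153 kb from it, had 497 and 689 against 1205 and 1238. Mef2c, a MADS-box transcription factor, 71.7 kb from the Mir9-2 hairpin, had 119 and 162 against 473 and 453. Ntrk3, a neurotrophin receptor, and Plin1, a lipid-droplet coat protein, lay 767 and 215 kb from the Mir9-3 hairpin.

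Within 1 Mb of the members the table held 4 genes, of which Wnk2, Rbms3 and Irak3 were not called with either scaling on the listed genes. Wnk2, a kinase gene near Id4, had 314 and 717 normalised reads in the controls, against 1345 and 971 in the knockouts. Rbms3, an RNA-binding protein gene near Tgfbr2, had 206 and 177 against 396 and 451. Near Hmga2, Wif1, a secreted Wnt inhibitor, had 752 and 1252 against 324 and 179, and Irak3, an inhibitor of Toll-like receptor signalling, moved the other way, at 62.1 and 129 against 265 and 337.

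The deposited tables assign a transcription factor family to each gene. Of 9 genes in the family bHLH, to which Id4 belongs, 7 were higher in the knockout and 2 lower, beside 61.3% and 38.5% of the whole table. With scaling on the listed genes 4 were called higher and 2 lower under TMM, and 1 higher and 2 lower with DESeq2. Of all 1142 genes those scalings called 248 higher and 442 lower under TMM, and 122 higher and 442 lower with DESeq2. Hmga2 was the only listed gene of the family HMGI/HMGY.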
